A study of Mus musculus with 2 samples.

Results

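The genes described here are the mitochondrial ribosomal protein genes of the mouse, those whose symbol is Mrpl or Mrps followed by a number and at most 1 letter. The name rule selected 78 of 31253 genes, 49 of the large subunit (Mrpl) and 29 of the small subunit (Mrps). RNA sequencing values of cultured mouse neural retinal progenitor cells (mNRPCs) were set beside those of mouse retina tissue, with 1 library of each. Both libraries came from strain C57BL/6. The mNRPC library was labelled 427NR-P24, a culture at passage 24, and the retina library was labelled C57. The methods describe enzyme digestion of adult neural retina and growth of the cells on Matrigel in a medium with N2 and B27 supplements, bFGF (a fibroblast growth factor) and CHIR99021 (which blocks glycogen synthase kinase 3). Whether the culture was 1 clone, and how many animals gave the tissue, is not given in the sources used here. The comparison asks how the message levels of the mitochondrial protein-making machinery differed between the cultured cells and the tissue. With 1 library per group there is no spread between replicates, no test between groups was possible, and every value below describes these 2 libraries.

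The mitochondrial ribosome translates the few messages encoded by mitochondrial DNA, which specify core subunits of the respiratory chain and of ATP synthase. Its RNAs come from mitochondrial DNA, but all of its proteins are encoded in the nucleus, made in the cytosol and imported. Many of these proteins have relatives in bacterial ribosomes, and others are found only in mitochondria. The retina holds photoreceptors, whose inner segments are packed with mitochondria, and dividing cells must also renew their mitochondria at each division.

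Levels are FPKM, in which the fragments of a transcript are divided by its length and by the fragments mapped in the library, so that genes can be compared per length. A log2 ratio is the log2 of (FPKM + 1) in mNRPC over (FPKM + 1) in retina, which understates the difference of genes with low levels. From the smallest values the depth was estimated at 6.64e+06 fragments for mNRPC and 5.01e+06 for retina, which gave a median member 356 fragments and 148 fragments and a median counting error of 0.14 in the log2 ratio. This error covers counting only. The labels were checked against marker genes. All 9 rod markers and all 5 cone markers were at least 2-fold lower in mNRPC, with a summed rod level of 19.0 FPKM against 18929 FPKM. All 5 cycling markers were higher, summing to 324 FPKM against 2.23 FPKM. Among progenitor markers Sox2, Nes and Vim were at least 2-fold higher, Pax6 and Six3 were within 2-fold, and Lhx2 and Rax were lower, Rax being listed at 0 in mNRPC, so the progenitor label held for some of its markers. Of 4 fibroblast markers only Col3a1 was past 2-fold, at 450 FPKM against 0.311 FPKM. The part of cell composition and of cycling in the differences below was not tested, and fewer cells of a type cannot be told apart from less RNA per cell.

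Messages of the mitochondrial ribosome were more abundant in mNRPC than in retina for most members. The summed level of the 78 genes was 3650 FPKM in mNRPC and 1969 FPKM in retina, a ratio of 1.85. Their share of all FPKM of the library was 0.592% in mNRPC and 0.456% in retina. The median member was at 35.1 FPKM in mNRPC and at 22.4 FPKM in retina. On the log2 scale 32 members (41.0%) were at least 2-fold higher in mNRPC, beside 24.5% of the 13780 genes compared, and 1 member was at least 2-fold lower, beside 30.0% of those genes. The remaining 45 members lay within 2-fold. Measured against the median of all genes of similar transcript length, in 20 bins of length, 21 members (26.9%) were at least 2-fold higher, beside 25.3% of all genes, and 2 were lower, beside 26.9%, so by this count the share of higher members was near the background. At a 4-fold threshold 3 members (3.85%) were higher, a smaller share than the 11.2% of all genes. The median log2 ratio was 0.71, with quartiles of 0.19 and 1.22, and that of all genes compared was −0.12.

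The size of this difference moved with the scaling of the libraries, because the deposited values summed to 616860 FPKM in mNRPC and to 432256 FPKM in retina. With both libraries rescaled to a common sum, the median member was at a log2 ratio of 0.24 and the median of all genes at −0.68, so the members stood 0.93 above the median of all genes in place of 0.83. The members at least 2-fold higher then numbered 10 (background 18.4%) and those at least 2-fold lower 4 (background 42.4%). Members with a log2 ratio above 0 numbered 64 as deposited, beside 46.9% of all genes, and 46 after rescaling. Members above the median of all genes, a line that splits all genes evenly, numbered 64 as deposited and 67 after rescaling.

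**Figure D1:**
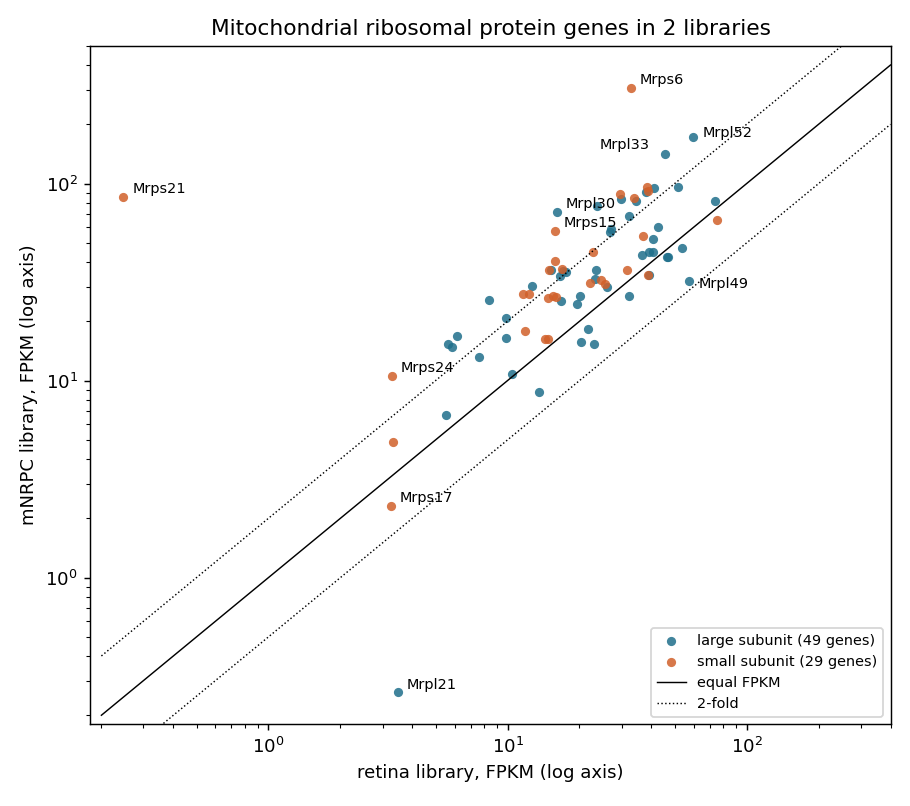
Level of each of the 78 mitochondrial ribosomal protein genes in the retina library (x axis, FPKM, log scale) and in the mNRPC library (y axis, FPKM, log scale), with 1 point per gene coloured by subunit. Most points lie above the line of equal FPKM, and Mrps21 and Mrpl21 stand apart at low levels in 1 library each.

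A mitochondrial ribosome holds 1 copy of nearly all of its proteins, while their messages were not at equal levels. In mNRPC the quartiles of the 78 levels were 24.6 FPKM and 58.6 FPKM, and 46 members lay within 2-fold of the median level. In retina the quartiles were 14.4 FPKM and 36.7 FPKM, and 55 members lay within 2-fold of the median level. At least 10 FPKM was reached by 73 members in mNRPC and by 65 in retina, and none was listed at 0. Across the 78 genes the levels in both libraries had a Spearman's rho of 0.73, a description over genes that share the same pair of libraries.

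The members at the top of the order changed between the libraries. In mNRPC the highest levels were those of Mrps6 at 307 FPKM, Mrpl52 at 172 FPKM, Mrpl33 at 141 FPKM, Mrpl23 at 96.2 FPKM and Mrps18c at 95.8 FPKM. In retina they were those of Mrps33 at 74.99 FPKM, Mrpl20 at 73.5 FPKM, Mrpl52 at 59.8 FPKM, Mrpl49 at 57.5 FPKM and Mrpl54 at 53.5 FPKM. Of the 10 highest members of each library, 3 were shared. At least 2-fold higher in mNRPC were 9 of the 10 highest in mNRPC and 2 of the 10 highest in retina, a contrast that choosing members by their level in 1 library favours. No order among neighbours with such close levels can be set against a replicate spread.

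Both subunits had more members higher in mNRPC than lower. Of the 49 large subunit genes 19 were at least 2-fold higher and 1 was lower, with a median log2 ratio of 0.62 and quartiles of 0.15 and 1.20. Of the 29 small subunit genes 13 were at least 2-fold higher and 0 were lower, with a median of 0.79 and quartiles of 0.39 and 1.29. Beside these counts, 24.5% of all genes were higher and 30.0% lower. After rescaling to a common sum 5 large subunit genes were higher and 4 lower, and 5 small subunit genes were higher and 0 lower, beside 18.4% and 42.4% of all genes. The difference of the medians, large minus small, was −0.18, and the quartile ranges of the subunits overlapped over most of their length. It was −0.26 when the subunit was taken from the structure of the ribosome, in which Mrps18a and Mrps30 sit in the large subunit and Mrps36 is not counted as a ribosomal protein.

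The summed levels of the subunits also differed. The large subunit genes summed to 2193 FPKM in mNRPC and 1334 FPKM in retina, a ratio of 1.64. The small subunit genes summed to 1457 FPKM and 635 FPKM, a ratio of 2.29. Mrps6 alone held 21.1% of the small subunit sum in mNRPC, and without it that ratio was 1.91. The ratio without Mrps6 still holds Mrps21, at 85.9 FPKM in mNRPC and 0.247 FPKM in retina. The values of both genes are uncertain, as described below, so the sums are not ranked against the medians.

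**Figure D2:**
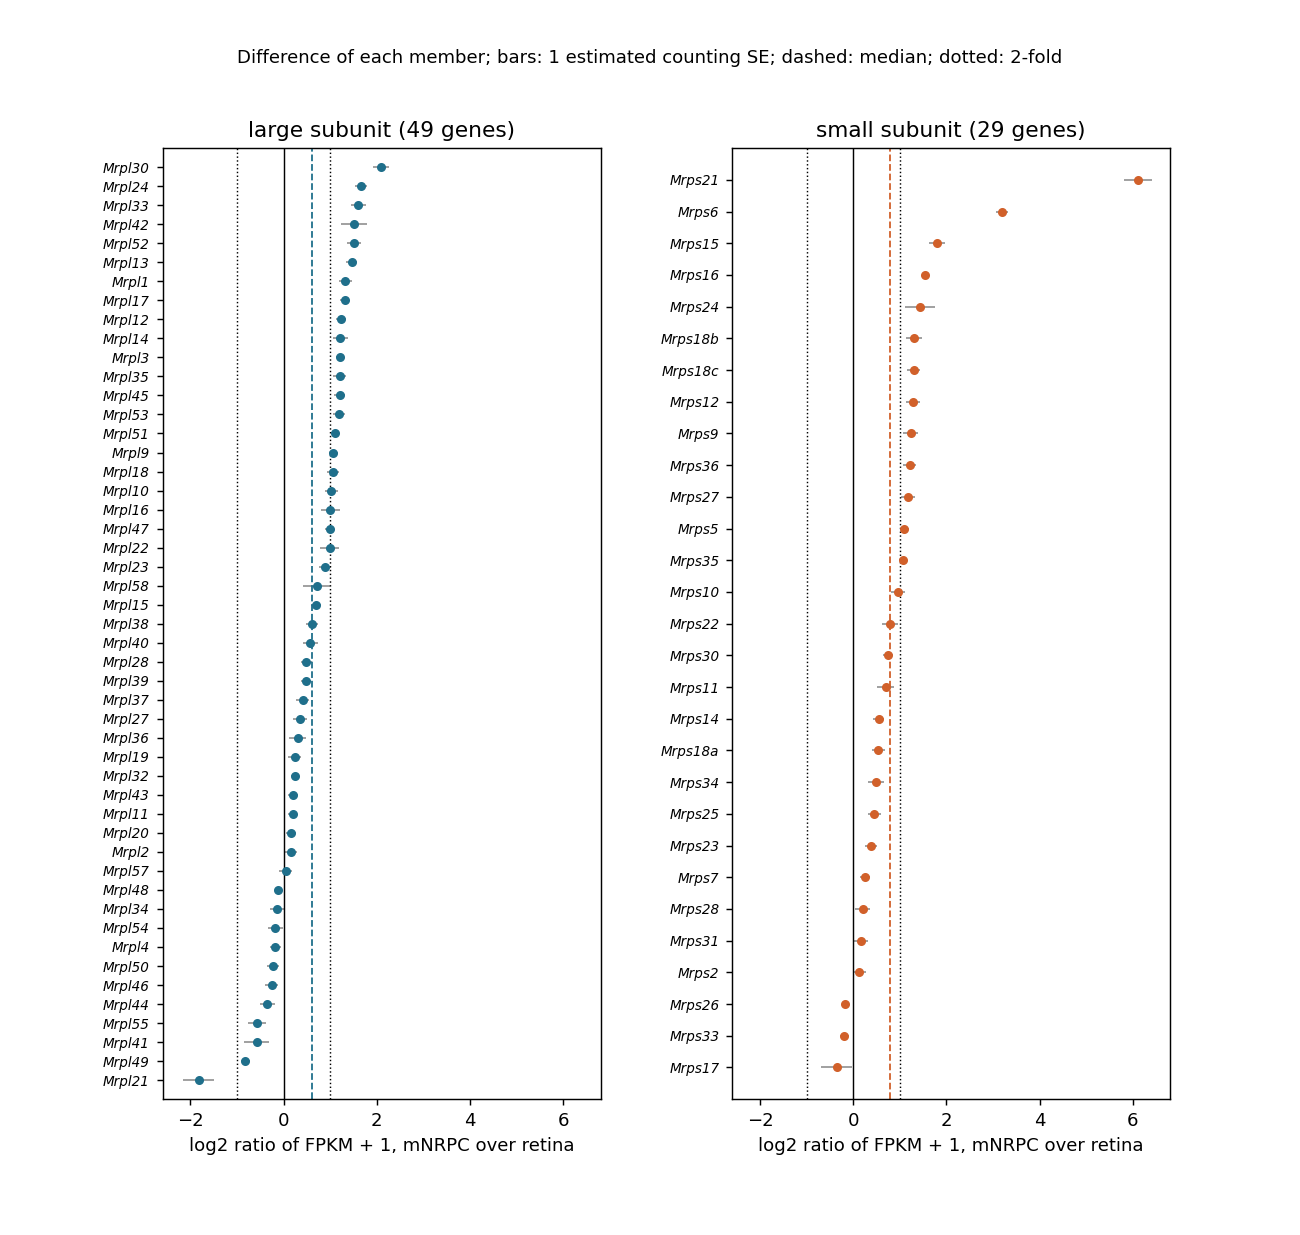
Log2 ratio of FPKM + 1, mNRPC over retina, of each large and small subunit gene, with 1 point per gene and bars for the estimated counting error only. The subunits overlap along most of the axis, with Mrps21 and Mrps6 above and Mrpl21 below all other members.

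Among the large subunit genes the widest difference upward was that of Mrpl30, the relative of bacterial L30, at 71.8 FPKM in mNRPC and 16.1 FPKM in retina, a log2 ratio of 2.09. Mrpl24 was at 77.0 FPKM and 23.7 FPKM (1.66), but at a log2 ratio of 1.08 when only curated transcripts were summed. Mrpl33 was at 141 FPKM and 45.6 FPKM (1.61), and shares 261 exon bases on the same strand with Gm43809, beside its own transcript of 478 bases. Mrpl42 and Mrpl52, both particular to mitochondria, followed at 25.6 FPKM against 8.34 FPKM (1.51) and at 172 FPKM against 59.8 FPKM (1.51). Mrpl13 was at 83.8 FPKM and 29.8 FPKM (1.46), and Mrpl17, a relative of a bacterial protein at the exit of the peptide tunnel, at 15.4 FPKM and 5.61 FPKM (1.31). All 7 of these stayed above a log2 ratio of 0 after rescaling to a common sum.

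Mrpl1, which forms the stalk that guides used transfer RNA out of the ribosome, cannot be given 1 direction. Its summed level was 16.8 FPKM in mNRPC and 6.13 FPKM in retina, a log2 ratio of 1.32. In mNRPC 74.0% of that level was assigned to 1 predicted transcript, while in retina 98.7% was assigned to the curated transcript of 3431 bases. Over curated transcripts the log2 ratio was −0.42. The share of a single transcript rests on how the estimation divided the fragments.

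Messages of the stalk that recruits translation factors were measured in 3 members. Mrpl12, the repeated protein of this stalk, which also binds mitochondrial RNA polymerase, was at 90.5 FPKM in mNRPC and 37.9 FPKM in retina (log2 ratio 1.23). Mrpl10, its anchor, was at 35.8 FPKM and 17.1 FPKM (1.03). Mrpl11, at the base, was at 30.0 FPKM and 26.1 FPKM (0.19), and was below 0 after rescaling to a common sum, when none of the 3 was past 2-fold.

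At the exit of the peptide tunnel, where the nascent chain meets the inner membrane, 6 members had a median log2 ratio of 1.10. As deposited 3 of them (50%, beside 24.5% of all genes), Mrpl24, Mrpl17 and Mrpl45, were at least 2-fold higher, and after rescaling 1 was, Mrpl24 at 1.17, beside 18.4% of all genes. Mrpl45, which anchors the ribosome to the membrane, was at 30.3 FPKM and 12.7 FPKM. The others, Mrpl22, Mrpl23 and Mrpl47, lay between 0.89 and 0.99. Mrpl23 had the highest level of the 6, at 96.2 FPKM in mNRPC and 51.5 FPKM in retina.

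At and around the central protuberance, the crest of the large subunit, 10 members had a median log2 ratio of 0.60 as deposited. Of these 3 were at least 2-fold higher (Mrpl18, Mrpl33 and Mrpl35), a share near that of all genes. After rescaling 1 was higher and 1 lower, beside 18.4% and 42.4% of all genes, and the median was 0.10. Those below 0 as deposited were Mrpl55 at −0.56, Mrpl46 at −0.25 and Mrpl48 at −0.13. Mrpl58, also known as Ict1, a peptidyl-tRNA hydrolase that was taken into the ribosome, was at 13.1 FPKM and 7.61 FPKM (0.71). These places were assigned from general knowledge after the values were seen.

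Of the 49 large subunit genes 11 had a log2 ratio below 0 as deposited, beside 7319 of the 13780 genes compared. After rescaling to a common sum 23 had one, while the median of all genes was −0.68. Mrpl49 was at 32.0 FPKM in mNRPC and 57.5 FPKM in retina, a log2 ratio of −0.82. It was the fourth highest member in retina and lay near the median of the members in mNRPC. Mrpl41 was at 8.76 FPKM and 13.5 FPKM (−0.58), and Mrpl55 at 15.3 FPKM and 23.1 FPKM (−0.56). Mrpl44, which carries a ribonuclease III fold, was at 15.8 FPKM and 20.4 FPKM (−0.35). Mrpl46 at 26.9 FPKM and 32.3 FPKM, Mrpl50, Mrpl4 and Mrpl54 had log2 ratios between −0.25 and −0.18, and Mrpl20, at 81.9 FPKM and 73.5 FPKM, was at 0.15 as deposited and at −0.36 after rescaling. After that rescaling Mrpl49 at −1.34, Mrpl41 at −1.09 and Mrpl55 at −1.08 were past the 2-fold threshold. With Mrpl21, described next, 4 of the 49 were then lower, beside 42.4% of all genes.

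Mrpl21 was the only member at least 2-fold lower as deposited, and it rested on few fragments. It was at 0.261 FPKM in mNRPC, about 1.97 fragments, and at 3.47 FPKM in retina, about 19.8 fragments. The retina to mNRPC ratio of FPKM was 13.3, with an exact 95% counting interval of 3.23 to 117. Its exons share 117 bases with those of Ighmbp2 on the opposite strand. Its curated transcript was under 1 FPKM in both libraries, at 0.000154 FPKM in mNRPC and 0.703 FPKM in retina, so most of its level came from 1 predicted transcript and no ratio of the curated one is given. No length was found for the predicted transcript. The fragments and the interval therefore rest on the curated length of 1138 bases and are rough.

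Among the small subunit genes the widest differences were those of Mrps21 and Mrps6, both relatives of proteins on the platform of the bacterial small subunit. Mrps21 was at 85.9 FPKM in mNRPC and at 0.247 FPKM in retina, a log2 ratio of 6.12. The retina value amounts to about 0.501 fragments on a transcript of 405 bases, so that the level in mNRPC was at least 58.1-fold higher, taken against 3 fragments in the retina library. Whether the retina value is a failed estimate was not tested.

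Mrps6 was at 307 FPKM in mNRPC and 32.7 FPKM in retina, a log2 ratio of 3.19 as deposited and of 2.70 after rescaling. It is a gene whose exons share 159 bases on the same strand with Slc5a3, which encodes a myo-inositol transporter, and 305 bases with Gm49711, a predicted coding gene that was not analysed here. Slc5a3 was at 68.6 FPKM and 2.92 FPKM, a log2 ratio of 4.15. How the shared fragments were divided between these genes is not known, so the level of Mrps6 is uncertain.

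Mrps15 was at 57.4 FPKM in mNRPC and 15.8 FPKM in retina (1.80), and Mrps16 at 88.4 FPKM and 29.6 FPKM (1.55). Mrps24, which lines the channel through which the message enters, was at 10.6 FPKM and 3.29 FPKM (1.43), and shares 226 exon bases on the same strand with Urgcp. Mrps12, at the decoding site, was at 84.0 FPKM and 33.9 FPKM (1.29), and Mrps5, also of the message channel, was at 27.5 FPKM and 12.3 FPKM (1.10). Of the 3 members assigned to decoding and the message channel all were thus at least 2-fold higher as deposited, beside 24.5% of all genes. After rescaling 1 was, Mrps24, beside 18.4% of all genes. Of 6 platform members 4 were higher as deposited and 3 after rescaling, beside the same shares of all genes. Among the higher ones are Mrps21 and Mrps6, whose values are uncertain. Of 4 head members 1 was higher as deposited, a share near that of all genes, and none after rescaling. It was Mrps9, at 36.3 FPKM and 14.9 FPKM (1.23). The places of the small subunit members were likewise assigned from general knowledge after the values were seen. With members chosen in this way, these counts do not test a place.

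At the other end of the small subunit lay Mrps17 at 2.31 FPKM in mNRPC and 3.24 FPKM in retina (−0.36), Mrps33 at 65.5 FPKM and 74.99 FPKM (−0.19) and Mrps26 at 34.5 FPKM and 38.9 FPKM (−0.17). Mrps2, Mrps31, Mrps28, Mrps7, Mrps23 and Mrps34 lay between 0.14 and 0.49 as deposited and were all below 0 after rescaling to a common sum. Mrps34 shares 763 exon bases on the same strand with Nme3, beside its own transcript of 918 bases. The value of Mrps2 depended on the transcripts summed, at 0.14 over all of them and 0.72 over curated ones, since 40.0% of its level in retina and 6.68% in mNRPC were assigned to 1 predicted transcript. Mrps30, a protein that sits in the large subunit despite its name, was at 26.8 FPKM and 15.5 FPKM (0.75). Mrps36, now known as a subunit of the oxoglutarate dehydrogenase complex, was at 91.5 FPKM and 38.8 FPKM (1.22).

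The 3 paralogs of bacterial S18 were measured side by side. Mrps18c was at 95.8 FPKM in mNRPC and 38.4 FPKM in retina (1.30), and Mrps18b at 40.5 FPKM and 15.7 FPKM (1.31). Mrps18a, the paralog that occupies the large subunit, was at 53.9 FPKM and 36.7 FPKM (0.54). Both small subunit paralogs were past 2-fold and the large subunit paralog was within it as deposited, and after rescaling none of the 3 was past 2-fold.

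For some members the share of transcripts changed along with the level. Mrps10 was at 45.1 FPKM in mNRPC and 22.8 FPKM in retina (0.95). In mNRPC 59.0% of this level was assigned to its transcript of 1017 bases and 40.4% to that of 1018 bases, against 11.3% and 86.6% in retina. Which positions tell these transcripts apart was not examined. Of the 78 members, 54 had 1 transcript row and 24 had more.

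Members of different origin were compared by their class in the ribosome nomenclature, which was assigned after the values were seen. Of the 27 members with relatives in all ribosomes 14 were at least 2-fold higher (51.9%, beside 24.5% of all genes), with a median log2 ratio of 1.004. Of the 19 members shared with bacteria alone 9 were higher (47.4%) and 1 lower (5.26%, beside 30.0% of all genes), with a median of 0.49. Of the 32 members found only in mitochondria 9 were higher (28.1%, beside 24.5% of all genes), with a median of 0.49. After rescaling to a common sum these medians were 0.54, −0.01 and 0.02, beside −0.68 for all genes. Then 4, 4 and 2 members were at least 2-fold higher, so no class stood far above the 18.4% of all genes. Within the large subunit the medians as deposited were 1.01 for 16 universal members against 0.33 for 14 bacterial members and 0.41 for 19 mitochondrial members. Within the small subunit the 5 bacterial members had the highest median, at 1.55, beside 0.95 for 11 universal and 0.54 for 13 mitochondrial members. Among those 5 are Mrps21 and Mrps6, whose values are uncertain. Of the 14 members with a log2 ratio below 0 as deposited, 9 belonged to the mitochondrial class of 32 members. Below 0 were also 7319 of the 13780 genes compared, a larger share than in this class.

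The log2 ratio was compared with other properties of the members. Across the 78 members the log2 ratio had a Spearman's rho of −0.15 with transcript length, −0.06 with GC content, −0.17 with the level in retina and 0.46 with the level in mNRPC, from which the ratio is itself computed. All 78 points share the same pair of libraries. By counting error alone, 55 members lay above 0 by more than 2 errors, 8 lay below 0 by more than 2, and 15 lay within 2. Just over and just under the 2-fold threshold, by less than 1 counting error, lay 5 members each.

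Many members start close to a gene on the other strand. In the GENCODE M21 annotation (GRCm38), 33 of 78 members (42.3%) had the start of another protein-coding gene within 1000 bases on the opposite strand, beside 10.9% of all protein-coding genes. That background also holds genes below the level needed to be compared, and the share among genes compared was not computed. In 18 of the 33 pairs the genes start apart and point away from each other, and in 15 the starts overlap head to head. In 30 of these pairs the partner could be compared, and the median log2 ratio of the partners was 0.18, with 7 at least 2-fold higher (23.3%, beside 24.5% of all genes) and 4 lower (13.3%, beside 30.0%). Mrpl46 and Mrps11 are each other's partner and enter once each. As deposited, both genes were above 0 in 11 pairs and both were at least 2-fold higher in 4 pairs. In 11 pairs the member was above 0 and the partner below, and in 7 pairs the reverse held.

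Some partners had a difference unlike that of the member they start beside, and others had one in the same direction. Mrpl49 starts 59 bases from Fau, which encodes a precursor of ribosomal protein S30 of the cytosolic ribosome. Fau was at 1705 FPKM in mNRPC and 417 FPKM in retina, a log2 ratio of 2.03, beside −0.82 for Mrpl49. Mrpl57 was at 10.8 FPKM and 10.4 FPKM (0.04), while Ska3, a protein of the spindle and kinetochore whose start lies 49 bases away, had a log2 ratio of 3.03. Mrpl51 and Ncapd2, a condensin subunit whose start lies 100 bases away, were at 1.09 and 2.596. Mrpl30 and its partner Mitd1, 66 bases away, were at 2.09 and 1.63. Mrpl46 and Mrps11, both members, overlap head to head by 412 bases and were at −0.25 and 0.70. Exon bases were shared with another gene by 31 members, 28 of them on the opposite strand, and whether the counting used strand is not given in the sources used here.

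**Figure D3:**
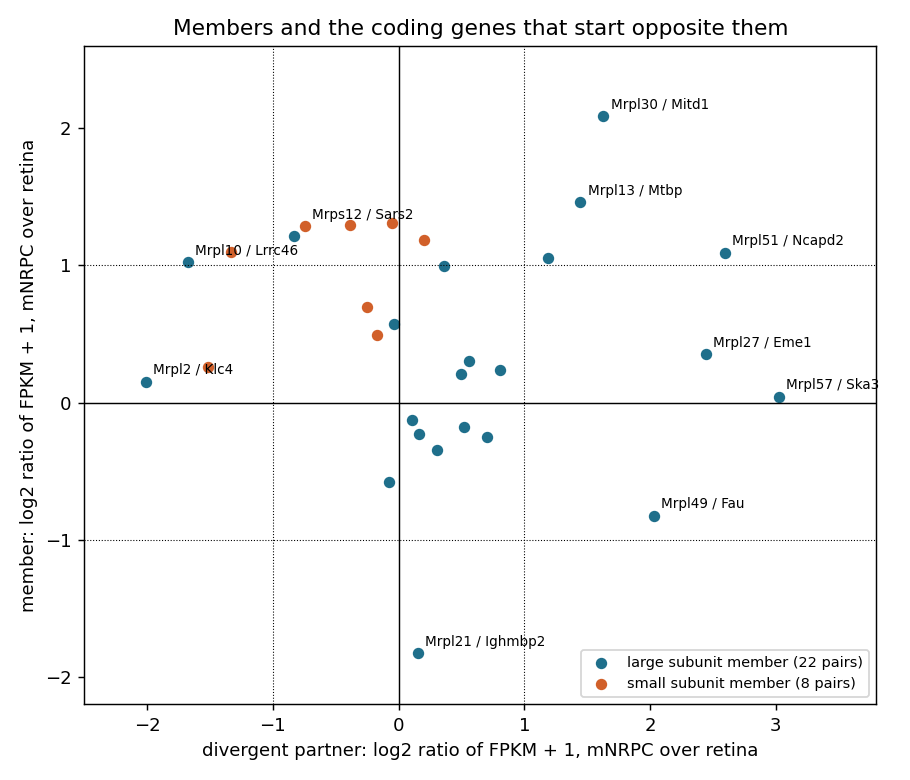
Log2 ratio of FPKM + 1, mNRPC over retina, of each member (y axis) and of the protein-coding gene that starts opposite it within 1000 bases (x axis), with 1 point per pair for the 30 pairs compared and dotted lines at 2-fold. Both genes are below 0 in 1 pair, and Mrpl49 with Fau lies at −0.82 and 2.03.

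Promoters of the members were searched for 4 short motifs that are bound by factors linked to nuclear genes for mitochondria. The windows run from 250 bases before to 50 bases after the transcript start in RefSeq (GRCm38.p6), on both strands, and were found for 69 of 78 members. The letters CCGGAAG, bound by ETS factors such as GABP, occurred in 26 of the 69 (37.7%), beside 9.93% of 27025 genes with a window and 19.1% of the 10913 of them that were compared here. The letters AAGATGGCG, bound by YY1, occurred in 8 (11.6%), beside 1.64% and 3.31%. The NRF1 motif, a palindrome of 10 bases, occurred in 3 (4.35%), beside 1.07% and 2.14%, and the E-box CACGTG, bound by MYC among others, in 5 (7.25%), beside 8.09% and 11.4%. Members with the ETS letters had a median log2 ratio of 1.02 and members without them 0.70, and those with and without the YY1 letters 0.94 and 0.79. The order was the other way for the NRF1 motif, at 0.48 with and 0.84 without, for the E-box, at 0.30 and 0.92, and for any of the 4, at 0.79 and 0.82. A match describes the letters and does not show that a factor binds there.

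Stretches from 120 bases before to 30 bases after the start are printed for the members with the highest log2 ratios, Mrps21, Mrps6 and Mrpl30, for Mrpl49, the lowest among members with at least 5 FPKM in a library, and for 3 members in which letters of 2 kinds lie close together, Mrps18a, Mrps27 and Mrpl36. Capitals mark a match to one of the 4 motifs, on either strand, and a stretch without capitals holds none of these letters. They are read from 5′ to 3′ along the gene, from RefSeq, GRCm38.p6. Mrps21 is at chr3:95871485-95871634 (minus strand), Mrps6 at chr16:92058216-92058365 (plus), Mrpl30 at chr1:37890357-37890506 (plus), Mrpl49 at chr19:6057726-6057875 (minus), Mrps18a at chr17:46110884-46111033 (plus), Mrps27 at chr13:99344666-99344815 (plus) and Mrpl36 at chr13:73330889-73331038 (plus).
Mrps21: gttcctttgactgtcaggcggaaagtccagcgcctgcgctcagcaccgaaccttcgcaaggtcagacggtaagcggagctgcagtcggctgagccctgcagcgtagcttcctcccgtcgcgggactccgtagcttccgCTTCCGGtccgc
Mrps6: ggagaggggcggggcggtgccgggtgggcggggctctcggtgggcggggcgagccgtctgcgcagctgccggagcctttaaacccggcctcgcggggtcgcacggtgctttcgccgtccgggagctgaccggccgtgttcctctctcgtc
Mrpl30: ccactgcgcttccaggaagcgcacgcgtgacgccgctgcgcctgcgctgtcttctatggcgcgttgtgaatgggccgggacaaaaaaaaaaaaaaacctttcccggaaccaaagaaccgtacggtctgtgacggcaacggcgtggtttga
Mrpl49: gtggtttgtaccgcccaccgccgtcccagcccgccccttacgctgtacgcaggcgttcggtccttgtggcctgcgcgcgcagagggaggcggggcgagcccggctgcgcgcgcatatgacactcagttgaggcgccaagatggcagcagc
Mrps18a: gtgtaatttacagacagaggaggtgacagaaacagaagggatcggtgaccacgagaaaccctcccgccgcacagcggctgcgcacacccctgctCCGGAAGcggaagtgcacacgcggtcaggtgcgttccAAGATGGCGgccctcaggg
Mrps27: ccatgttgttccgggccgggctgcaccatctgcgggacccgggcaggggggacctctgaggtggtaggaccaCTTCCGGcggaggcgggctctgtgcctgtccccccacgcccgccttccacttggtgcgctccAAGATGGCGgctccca
Mrpl36: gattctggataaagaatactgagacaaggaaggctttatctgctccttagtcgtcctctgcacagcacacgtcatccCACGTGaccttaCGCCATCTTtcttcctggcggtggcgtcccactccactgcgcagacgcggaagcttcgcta

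Mrps21 holds the ETS letters on the opposite strand within its first transcribed bases, Mrps18a and Mrps27 hold ETS letters before the start and YY1 letters after it, and Mrpl36 holds an E-box followed by YY1 letters on the opposite strand. Their log2 ratios differed widely, at 6.12 for Mrps21, 0.54 for Mrps18a, 1.18 for Mrps27 and 0.30 for Mrpl36. Mrps6 and Mrpl30, with log2 ratios of 3.19 and 2.09, hold none of the 4 motifs in these stretches. Mrpl49, at −0.82, holds none either.

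Proteins of the mitochondrial ribosome that carry other names were looked up as well. Of 5 such genes 3 were at least 2-fold higher (60%, beside 24.5% of all genes) and none lower (beside 30.0%), with a median log2 ratio of 1.04. After rescaling 1 was higher, Dap3 at 1.07, and the median was 0.55. Dap3, a GTP-binding protein of the small subunit, was at 43.0 FPKM in mNRPC and 14.1 FPKM in retina (1.54). Chchd1 was at 130 FPKM and 58.0 FPKM (1.15), and Aurkaip1 at 78.0 FPKM and 37.3 FPKM (1.04). Gadd45gip1 was at 0.54 and Ptcd3 at 0.31, and Ptcd3 was below 0 after rescaling to a common sum.

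Factors that build or serve the ribosome had median log2 ratios near that of all genes. Of 27 assembly factors 2 were at least 2-fold higher (7.41%, beside 24.5% of all genes) and 4 lower (14.8%, beside 30.0%) as deposited. After rescaling 2 were higher and 7 lower, beside 18.4% and 42.4% of all genes. Their median was 0.09 as deposited and −0.39 after rescaling, beside −0.12 and −0.68 for all genes. Malsu1, which keeps the subunits apart until the large one is ready, was at 19.3 FPKM and 4.30 FPKM (1.93), and C1qbp at 96.7 FPKM and 31.3 FPKM (1.60). Trub2, a pseudouridine synthase, was at 1.51 FPKM and 8.97 FPKM (−1.99), and Mettl17 at 5.39 FPKM and 20.4 FPKM (−1.74).

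Of the 13 translation factors 12 were compared. As deposited none was past 2-fold in either direction, beside 24.5% of all genes higher and 30.0% lower, with a median log2 ratio of 0.09. After rescaling 0 were higher and 3 lower, beside 18.4% and 42.4% of all genes, with a median of −0.40. The highest log2 ratio as deposited was that of Tufm, the elongation factor that delivers transfer RNA, at 61.1 FPKM in mNRPC and 30.7 FPKM in retina (0.97). Of 20 enzymes that charge mitochondrial transfer RNAs 2 were higher (10%, beside 24.5% of all genes) and 3 lower (15%, beside 30.0%) as deposited, with a median of −0.25. After rescaling 1 was higher and 8 lower, beside 18.4% and 42.4% of all genes, with a median of −0.75. Ears2 was at 5.97 FPKM and 0.335 FPKM (2.38), and Hars2 at 6.12 FPKM and 20.2 FPKM (−1.57). The retina level of Ears2 amounts to only about 3.44 fragments.

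Of 12 genes for mitochondrial DNA and its transcription 2 were at least 2-fold higher (16.7%, beside 24.5% of all genes) and 1 lower (8.33%, beside 30.0%) as deposited. After rescaling 0 were higher and 3 lower, beside 18.4% and 42.4% of all genes. Their median log2 ratio was 0.12 as deposited and −0.34 after rescaling. Tfam, which packages the DNA and starts its transcription, was at 18.3 FPKM in mNRPC and 6.82 FPKM in retina (1.31), and Slirp, which stabilises mitochondrial messages, at 246 FPKM and 110 FPKM (1.15). Polg2, the accessory subunit of the DNA polymerase, was at 3.03 FPKM and 24.1 FPKM (−2.64). Genes often used to judge mitochondrial mass had 7 of 13 at least 2-fold higher (53.8%, beside 24.5% of all genes) and none lower (beside 30.0%), with a median of 1.09. After rescaling 3 were higher and 2 lower, with a median of 0.60. The chaperonins Hspd1, at 196 FPKM and 45.1 FPKM (2.10), and Hspe1 (1.91) were the highest. The outer membrane proteins Vdac1, at 198 FPKM and 283 FPKM (−0.51), and Tomm20 (−0.50) were the lowest.

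Of 10 regulators of mitochondrial gene expression 1 was at least 2-fold higher (beside 24.5% of all genes) and 3 were lower (beside 30.0%). Myc was at 17.3 FPKM in mNRPC and 0.257 FPKM in retina (3.86), where the retina level amounts to only about 3.02 fragments. Ppargc1a was listed at 0 in mNRPC and at 11.1 FPKM in retina, and Ppargc1b was at 1.51 FPKM and 8.81 FPKM (−1.96). Mycn, a relative of Myc, was at 1.25 FPKM and 4.22 FPKM (−1.21). Genes for the factors that bind the other motifs lay closer together, with Nrf1 at −0.37, Gabpa at 0.16 and Yy1 at 0.58. After rescaling Nrf1 was at −0.88 and Gabpa at −0.33, both below 0, and Yy1 was at 0.08.

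Both other large families of the same kind were set beside the members. Of 81 cytosolic ribosomal protein genes compared 80 were at least 2-fold higher and 1, Rps4l, was lower, with a median log2 ratio of 2.14, and after rescaling 71 were higher. They took 20.1% of all FPKM in mNRPC and 5.83% in retina. Of 80 nuclear genes of the respiratory chain and ATP synthase 13 were at least 2-fold higher (16.3%, beside 24.5% of all genes) and 3 lower (3.75%, beside 30.0%), with a median of 0.56. After rescaling 3 of the 80 were higher and 9 lower, beside 18.4% and 42.4% of all genes. Thus the 78 members, with a median of 0.71, lay far below the cytosolic ribosome and near the respiratory chain, and the order of these medians was the same after rescaling to a common sum, at 1.63, 0.24 and 0.05. Among the complexes the medians as deposited were 0.36 for complex I, 0.89 for complex II, 0.39 for complex III, 0.61 for complex IV and 0.76 for complex V, of which those of complexes I and III were below 0 after rescaling, at −0.15 and −0.12.

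**Figure D4:**
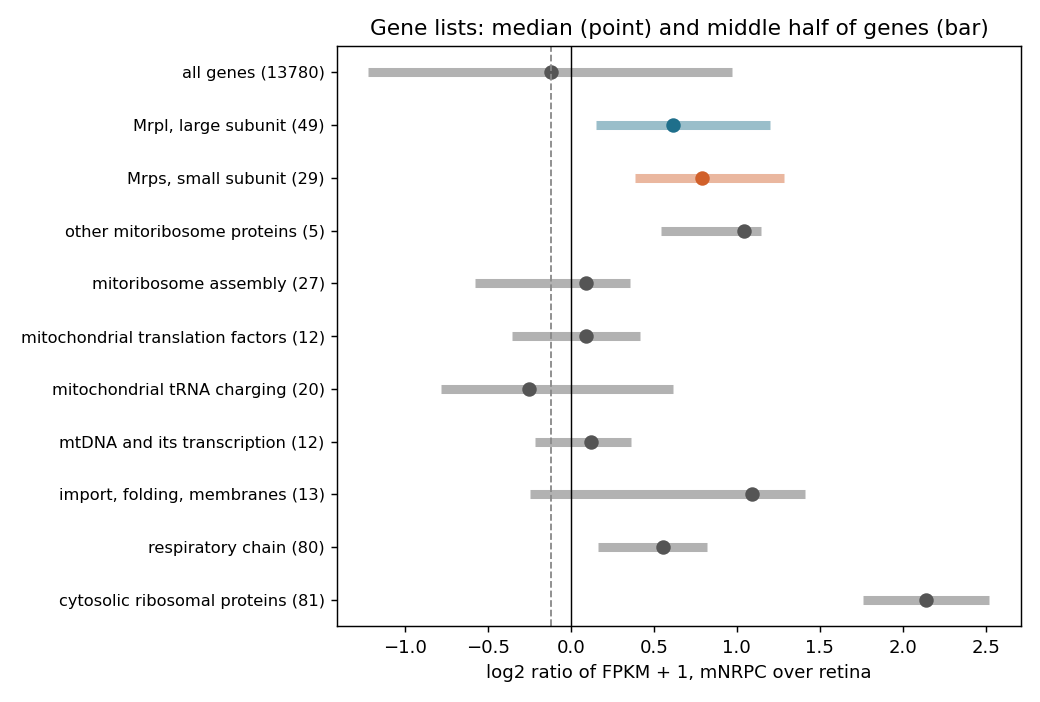
Median (point) and quartiles (ends of the bar) of the log2 ratio of FPKM + 1, mNRPC over retina, for the members by subunit and for other gene lists, with the number of genes compared in brackets and a dashed line at the median of all genes. As deposited, the medians of both subunits, 0.62 and 0.79, lie between those of the respiratory chain (0.56) and of the cytosolic ribosome (2.14).

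**Figure D5:**
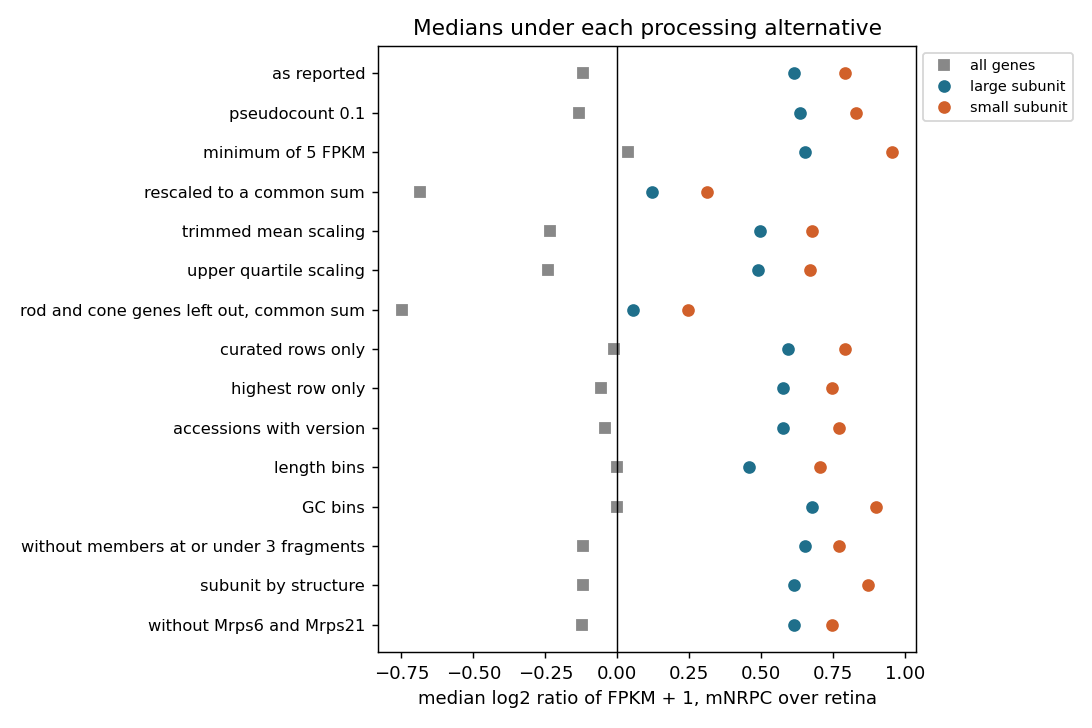
Median log2 ratio of FPKM + 1, mNRPC over retina, of the large subunit genes, the small subunit genes and all genes compared, as reported and under each processing alternative. Rescaling to a common sum moves all 3 medians down together, to 0.12, 0.31 and −0.68, and the small subunit median lies above the large one in each row drawn.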

How the data were processed

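Total RNA of 1 mNRPC culture and 1 retina sample was sequenced, and the groups were taken from the labels. The deposited values were FPKM per RefSeq transcript, given by the authors. By the study's methods, reads passed quality control, were aligned to the mouse genome with Bowtie 2 and were turned into FPKM with eXpress, which divides a read that fits several transcripts by estimation. The submitters' processing notes name TopHat2 2.0.10 and GRCm38.p3 without a role, and the series text and the methods name different sequencers. Strandedness is not given in the sources used here.

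The table held 106754 transcript rows. Accessions without version were matched to gene symbols of the RefSeq table of assembly GRCm38.p6 or, failing that, of GENCODE M21, which named 74283 rows (69.6%), with 93.2% of the FPKM of mNRPC and 89.9% of that of retina. Rows of a symbol were summed. The 13780 genes with at least 1 FPKM in a library were compared, all 78 members among them, as log2 of FPKM + 1, as in the study. A difference of at least 2-fold on this scale was counted, beside the share of all genes compared, and no p-value was computed. Estimates below 1e-06 FPKM were read as 0. Depth was estimated from the lowest FPKM values times transcript length, over transcripts of at least 1500 bases. The estimates for mNRPC were 6.40e+06 and 6.55e+06 with 500 and 2500 bases, and those for retina 4.90e+06 and 5.13e+06. Counting errors and floors of 3 fragments follow from these and cover counting only. For each gene they use the length of the highest transcript row that had one.

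Named members were those with the 8 highest and 8 lowest log2 ratios of each subunit among members with at least 5 FPKM in a library, the 5 highest levels of each library, members at least 2-fold lower or at or under 3 fragments, the Mrps18 paralogs, Mrps30, Mrps36 and Mrpl12. Other members were named as examples of a place, a class or a neighbour after their values were seen. From each gene list other than the markers the 2 highest and 2 lowest were eligible. Named in addition were all 5 ribosomal proteins outside the name rule, Mycn, Nrf1, Gabpa and Yy1. The members and lists were chosen with earlier results of these data known. Alternatives covered the pseudocount, the filter on low values, scaling, transcript rows, length, GC content, threshold and subunit assignment. Python 3.11.15, pandas 2.3.3, numpy 2.4.6, scipy 1.17.1 and matplotlib 3.10.9 were used, and the scripts were tested on simulated data. Protein sequences were not used here. A progenitor marker of the list is not reported here.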

Additional observations from a re-analysis of the deposited data

How the results depend on the processing

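The median log2 ratio of the members, 0.71, was 0.24 once both libraries had a common sum and 0.18 with rod and cone genes also left out. The number at least 2-fold higher, 32, was 10 and 8 in those cases, 20 (of 53 members) with accessions matched by version, 3 at a 4-fold threshold (3.85%, beside 11.2% of all genes) and 21 within bins of similar transcript length (26.9%, beside 25.3%), the last chosen after seeing the data. The number at least 2-fold lower, 1, was 4 in both rescaled cases, 2 at 1.5-fold and within length bins, and 0 with a minimum of 5 FPKM, curated transcripts, versioned accessions, a 4-fold threshold or without members at or under 3 fragments. The ratio of summed levels, 1.85, was 1.30 after rescaling, 1.24 with rod and cone genes left out, 1.70 with trimmed mean scaling, 1.70 with upper quartile scaling and 1.68 without Mrps6 and Mrps21, the last chosen after seeing the data. Among the named members, values that changed sign were those of Mrpl1 (−0.42, curated transcripts) and, after rescaling, of Mrpl20 (−0.36), Mrps2 (−0.36), Mrps23 (−0.11), Mrps28 (−0.30), Mrps31 (−0.33), Mrps34 (−0.0026) and Mrps7 (−0.24). Of all 78 members, 18 were above 0 as deposited and below 0 after rescaling. Of 234 values of 39 named members, 190 stayed within the 95% counting interval of the reported one, 36 moved further without changing sign and 8 changed sign. Rescaling lowered the log2 ratio of every member but Mrps21, since the mNRPC values are divided by a larger sum. For the other changes the cause was not tested. The difference of the subunit medians, large minus small, lay between −0.30 and −0.12 in all alternatives run. Relative to all genes the median member stood at 0.83 as deposited, 0.93 after rescaling, 0.58 within bins of similar transcript length and 0.79 within bins of similar GC content. No paired analysis was possible because neither mNRPC nor retina had a second library, and for the same reason no replicate could be left out. Depth limits Mrps21 in retina and Mrpl21 in mNRPC, both at or under 3 fragments.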
